A study of Mus musculus with 6 samples.

Results

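The 8 genes followed here carry out the last steps of neurotransmitter release in mouse striatum: the SNARE genes Stx1a, Snap25, Vamp2 and Vamp1 and the active zone genes Rims1, Unc13a, Bsn and Pclo. They were picked by gene symbol, with earlier results of these data known but by no rule on their values, and all 8 were found among the 45777 genes of the count table. The libraries came from 6-week-old ICR mice, an outbred strain, in 2 groups of 3 offspring. In the methylphenidate-sired group the sires, 6 weeks old at the start, had received 15 mg/kg methylphenidate subcutaneously for 21 days. In the saline-sired group the sires had received 10 mL/kg saline on the same schedule. Methylphenidate is a stimulant that inhibits reuptake of dopamine and noradrenaline. Dams of both groups were drug-free, and no treatment of the offspring is stated. The labels list 2 females and 1 male per group but do not tie a column of the table to an animal, so each library was placed in its group only and is called by its column number. The sources used here do not give how many sires and litters stand behind each group, and p-values therefore measure only the spread between these libraries.

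As background, a synaptic vesicle fuses when its vesicle SNARE (a synaptobrevin, encoded by Vamp1 or Vamp2) winds together with the plasma membrane SNAREs syntaxin (Stx1a) and Snap25 into a helical bundle that pulls the membranes together. The active zone prepares this step: the RIM scaffold (Rims1) tethers vesicles and calcium channels, the priming factor encoded by Unc13a opens syntaxin for SNARE assembly, and the very large scaffolds bassoon (Bsn) and piccolo (Pclo) organise the release site. Striatal synapses come largely from cortical and thalamic axons and from the local medium spiny neurons, the main cells of the striatum, whereas most mRNA of these genes lies in neuronal cell bodies. Snap25 has also been studied as a candidate gene for attention deficit hyperactivity disorder, for which methylphenidate is prescribed.

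Of the 8 genes, 6 had a window before their start in the promoter table from RefSeq (GRCm38.p6): Stx1a, Vamp1, Rims1, Unc13a, Bsn and Pclo. Snap25 and Vamp2 had no entry. Shown are the 250 bases before the start of Rims1 and Stx1a, the 2 of these 6 genes with the highest fold changes below, and of Vamp1, whose values varied between libraries in another way. Rims1 lies at chr1:22806159-22806408 on the minus strand, Stx1a at chr5:135023232-135023481 on the plus strand and Vamp1 at chr6:125215331-125215580 on the plus strand. Capitals mark the GC box GGGCGG, the CCAAT box and the letters TGACG, the core of the cyclic AMP response element, each searched on both strands.
Rims1: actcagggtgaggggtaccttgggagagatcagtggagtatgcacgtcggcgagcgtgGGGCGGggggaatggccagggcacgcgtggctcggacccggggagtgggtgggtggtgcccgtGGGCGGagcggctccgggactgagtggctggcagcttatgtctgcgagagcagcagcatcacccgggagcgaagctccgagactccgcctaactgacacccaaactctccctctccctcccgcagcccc
Stx1a: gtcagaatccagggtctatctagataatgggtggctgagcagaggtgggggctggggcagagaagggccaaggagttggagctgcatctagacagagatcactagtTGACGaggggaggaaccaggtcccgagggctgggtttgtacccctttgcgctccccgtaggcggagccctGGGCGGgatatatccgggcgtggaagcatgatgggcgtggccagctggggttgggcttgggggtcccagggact
Vamp1: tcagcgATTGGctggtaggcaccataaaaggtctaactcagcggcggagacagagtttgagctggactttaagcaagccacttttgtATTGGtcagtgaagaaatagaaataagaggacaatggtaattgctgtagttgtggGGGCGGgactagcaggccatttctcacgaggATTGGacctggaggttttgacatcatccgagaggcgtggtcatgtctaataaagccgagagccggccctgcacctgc
The GC box occurred in 5 of the 6 windows (all but that of Bsn), against 32.7% of the 32851 windows of the table. The CCAAT box occurred only in the window of Vamp1, which held it 3 times, against 33.8% of all windows. TGACG was found in the windows of Stx1a and Unc13a, against 17.8% of all. None of the 6 held the full element TGACGTCA (1.55% of all windows), of which TGACG is a part, nor TATAAA (12.4%) or CACGTG (6.02%). A matching stretch of letters is a description and not evidence of binding, and no match says only that these letters are not in the window. GC content was 68.0% for Rims1, 62.0% for Stx1a and 50.4% for Vamp1, with a median of 52.4% over all windows.

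Total counts were 31360042 to 38844724 per library. Levels are CPM, counts scaled to TMM-adjusted library size, and fold changes are methylphenidate-sired over saline-sired. Over 17874 genes tested with edgeR's quasi-likelihood test, 4 genes (0.0224%) passed an adjusted p of 0.05, and 0 of these were higher. For the labelled tissue, 14 medium spiny neuron markers were read. Detection alone does not tell tissues apart, as 14 cortical and 8 choroid plexus markers were all detected too. All 14 medium spiny neuron markers were detected. Ppp1r1b, which encodes DARPP-32, ranged over 1376 to 1651 CPM among the methylphenidate-sired and 1652 to 1898 CPM among the saline-sired libraries. Saline-sired library 4 had the lowest cortical marker level and saline-sired libraries 3 and 4 the highest choroid plexus levels.

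All 8 genes had positive fold changes, from 0.05 for Unc13a to 0.57 for Stx1a on the log2 scale, and none passed the edgeR test. Their median was 0.23, beside -0.01 over all genes tested, of which 47.0% were positive. Of the 8, 5 had an unadjusted p under 0.05 with higher values (Rims1, Snap25, Vamp2, Stx1a and Bsn), against 5.07% of all genes tested in that direction and 8.17% of the 5976 genes averaging 5 or more on the log2 CPM scale, a limit chosen after the values were seen that all 8 genes meet. In 4 of the 8 every methylphenidate-sired library lay above every saline-sired one, against 7.84% of all genes tested and 11.9% of the more abundant ones. DESeq2, a second count test, called 3 of the 8 higher, Rims1, Snap25 and Vamp2, against 1.13% of the 12853 genes to which it gave an adjusted p. limma-voom called none, with 4 genes called over the whole table, and the lowest limma-voom adjusted p among the 8 was 0.373.

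Snap25, the plasma membrane SNARE that is anchored by palmitate instead of a membrane-spanning segment, was by far the most abundant. It was at 1792, 1874 and 1995 CPM in methylphenidate-sired libraries 2, 4 and 6, and at 1482, 1430 and 1676 CPM across saline-sired libraries 3, 4 and 5. The groups did not overlap, with saline-sired library 5 closest to the other group. The log2 fold change was 0.30 (SE 0.08, n = 3 per group, edgeR adjusted p = 0.420), a ratio of 1.23, and DESeq2 gave an adjusted p of 0.0178.

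Vamp2, the main synaptobrevin of forebrain synapses, varied least among replicates. It was at 890.6, 961.3 and 915.1 CPM in methylphenidate-sired libraries 2, 4 and 6, and at 759.5, 779.5 and 830.2 CPM across saline-sired libraries 3, 4 and 5. The groups did not overlap. The coefficient of variation was 3.89% in the methylphenidate-sired and 4.61% in the saline-sired group, and the log2 fold change was 0.22 (SE 0.06, edgeR adjusted p = 0.452; DESeq2 adjusted p = 0.0429).

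Stx1a, a neuronal syntaxin, had the largest fold change and the most uneven saline-sired group. It was at 83.29, 85.16 and 91.25 CPM in methylphenidate-sired libraries 2, 4 and 6, and at 63.72, 37.43 and 74.18 CPM across saline-sired libraries 3, 4 and 5. The groups did not overlap, and saline-sired library 4 lay far below the rest. The coefficient of variation was 4.81% in the methylphenidate-sired and 32.4% in the saline-sired group. The fold change, 0.57 on the log2 scale (SE 0.21, edgeR adjusted p = 0.488), was 0.33 without saline-sired library 4 (SE 0.09), and DESeq2 did not call the gene (adjusted p = 0.492).

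Vamp1, the synaptobrevin best known from brainstem, spinal cord and fast-spiking neurons, did not separate the groups. It was at 57.38, 83.57 and 108.5 CPM in methylphenidate-sired libraries 2, 4 and 6, and at 69.03, 96.36 and 56.67 CPM across saline-sired libraries 3, 4 and 5. The groups overlapped over most of their range, with methylphenidate-sired library 6 and saline-sired library 4 high and methylphenidate-sired library 2 and saline-sired library 5 low. The log2 fold change was 0.17 (SE 0.25, edgeR adjusted p = 0.868) and ranged over -0.07 to 0.40 as each library in turn was left out. It was lowest when methylphenidate-sired library 6 or saline-sired library 5 (0.02) was the one left out, and highest when it was methylphenidate-sired library 2 (0.39) or saline-sired library 4 (0.40).

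Among the active zone genes, Rims1 had the lowest p of the 8, ranking 52 of 17874 genes. It was at 192.2, 198.9 and 211.7 CPM in methylphenidate-sired libraries 2, 4 and 6, and at 149.0, 146.1 and 171.2 CPM across saline-sired libraries 3, 4 and 5. The groups did not overlap. The log2 fold change was 0.37 (SE 0.08, edgeR adjusted p = 0.376), a ratio of 1.29, and DESeq2 gave an adjusted p of 0.00343.

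Bsn and Pclo, which encode related scaffolds, followed each other closely. Bsn was at 524.3, 523.5 and 485.4 CPM in methylphenidate-sired libraries 2, 4 and 6, and at 419.6, 383.9 and 498.4 CPM across saline-sired libraries 3, 4 and 5. Pclo was at 332.1, 313.8 and 293.4 CPM in methylphenidate-sired libraries 2, 4 and 6, and at 261.3, 236.7 and 307.2 CPM across saline-sired libraries 3, 4 and 5. In both genes the groups overlapped through methylphenidate-sired library 6 and saline-sired library 5. The log2 fold changes were 0.24 (SE 0.10, edgeR adjusted p = 0.517) for Bsn and 0.22 (SE 0.10, edgeR adjusted p = 0.560) for Pclo. Without saline-sired library 4 they were 0.16 (SE 0.09) and 0.14 (SE 0.09), and without saline-sired library 5 they were 0.36 and 0.34. Exons of Pclo overlap the opposite-strand genes Gm26918 and Gm26954, and those of Bsn the same-strand gene Gm47303, in GENCODE vM21.

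Unc13a had the smallest fold change. It was at 461.2, 403.5 and 384.7 CPM in methylphenidate-sired libraries 2, 4 and 6, and at 447.0, 342.0 and 419.9 CPM across saline-sired libraries 3, 4 and 5. The groups overlapped, with saline-sired library 4 lowest and methylphenidate-sired library 2 and saline-sired library 3 highest. The log2 fold change was 0.05 (SE 0.11, edgeR adjusted p = 0.928), and it changed sign when either methylphenidate-sired library 2 (-0.02) or saline-sired library 4 (-0.06) was left out, and was 0.08 to 0.13 when any other library was. Exons of Unc13a overlap those of Colgalt1 on the opposite strand, and the sources used here do not say whether counting used strand. Colgalt1 was at 30.02 to 34.92 CPM in the methylphenidate-sired and 31.49 to 35.26 CPM in the saline-sired libraries.

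**Figure D1:**
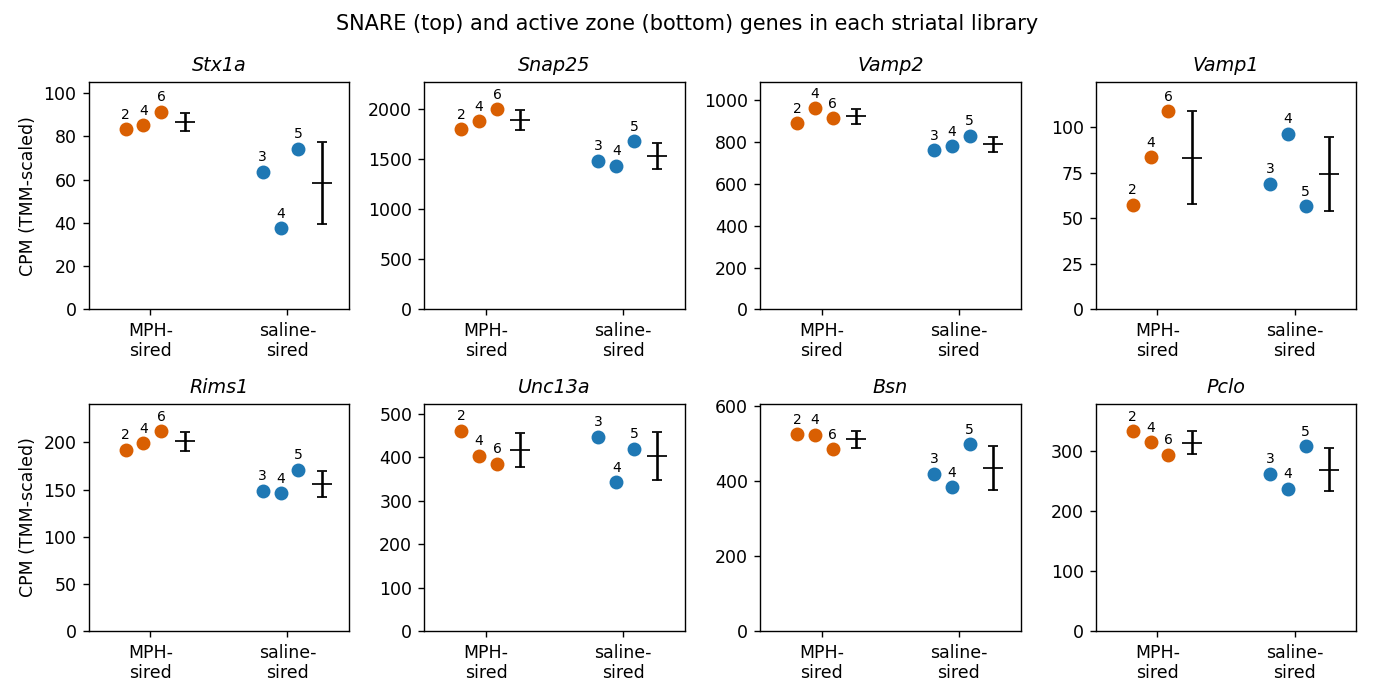
CPM (TMM-scaled) of the 8 genes in the methylphenidate-sired (MPH, orange) and saline-sired (blue) libraries, each point labelled with its column number, with the mean and SD in black (n = 3). In Stx1a, Snap25, Vamp2 and Rims1 every MPH-sired point lies above every saline-sired one; in the other 4 genes the groups overlap.

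To compare levels between genes, mean CPM was divided by the length of the principal transcript in kilobases (GENCODE vM21). On this scale Snap25 stood first, at 892 ± 48.2 CPM per kb in the methylphenidate-sired and 723 ± 61.3 in the saline-sired group (SD, n = 3 each). Vamp2 was next, at 418 ± 16.3 in the methylphenidate-sired and 358 ± 16.5 in the saline-sired group. Unc13a was at 40.6 ± 3.88 CPM per kb in the methylphenidate-sired and 39.3 ± 5.32 in the saline-sired group, and Stx1a at 40.0 ± 1.93 in the methylphenidate-sired and 27.0 ± 8.76 in the saline-sired group. These 2 neighbours did not differ beyond their spread in the methylphenidate-sired group. Bsn was at 32.1 ± 1.40 CPM per kb in the methylphenidate-sired and 27.2 ± 3.68 in the saline-sired group. Rims1 was at 31.2 ± 1.53 in the methylphenidate-sired and 24.1 ± 2.13 in the saline-sired group, and Vamp1 at 30.0 ± 9.22 in the methylphenidate-sired and 26.7 ± 7.33 in the saline-sired group. Bsn, Rims1 and Vamp1 did not differ beyond their spread in either group, nor did Stx1a from them in the saline-sired group. Spread here is the SD between libraries, and these genes were not compared within each library. Pclo was lowest, at 15.6 ± 0.965 CPM per kb in the methylphenidate-sired and 13.4 ± 1.78 in the saline-sired group.

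Close paralogs of these genes were read from the same fit. Snap23, the widely expressed relative of Snap25, was at 3.93 ± 0.688 CPM per kb in the methylphenidate-sired and 4.17 ± 0.380 in the saline-sired group, with a log2 fold change of -0.08 (SE 0.15). Vamp3, a synaptobrevin found in most cell types, had -0.13 (SE 0.11), Rims2 had 0.08 (SE 0.07) and Unc13b had 0.28 (SE 0.17). None of these 4 paralogs passed the edgeR test.

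**Figure D2:**
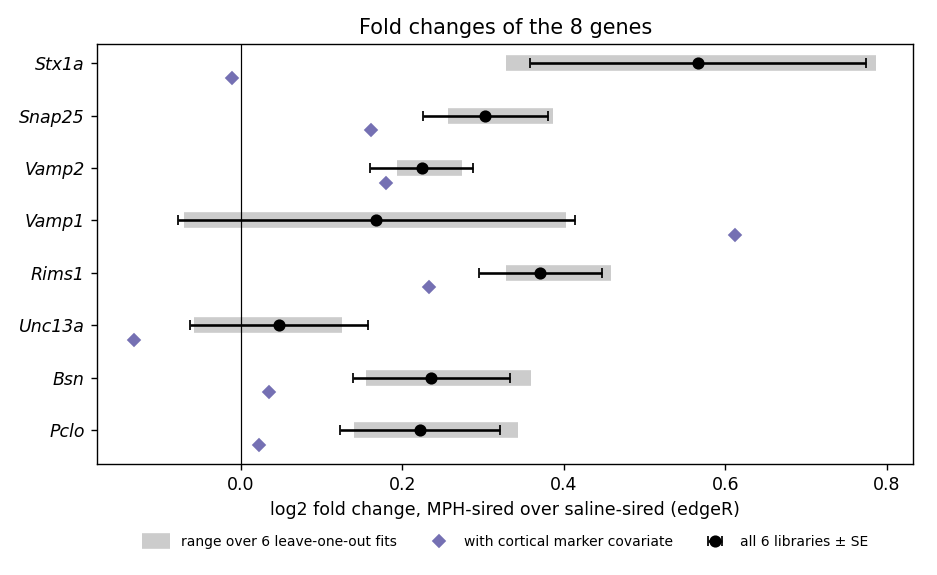
Log2 fold change of each gene, methylphenidate-sired (MPH) over saline-sired, with all 6 libraries (black, ± SE), its range over the 6 fits that each leave out 1 library (grey bar), and its value in a fit with a cortical marker covariate (purple). Rims1, Snap25 and Vamp2 stay between 0.19 and 0.46 in every leave-one-out fit, whereas Vamp1 and Unc13a cross 0.

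The wider release machinery was read from 3 lists that leave out the 8 genes and together hold 42. Of these, 41 were found in the table under the listed symbol, and all 41 passed the filter on low counts. None passed the edgeR test. In these lists 29 of 41 genes had positive fold changes, against 47.0% of all genes tested. The median of the 41 was 0.13, and 0.06 in the fit with the cortical marker covariate described below. Of the 41, 13 had an unadjusted p under 0.05 with higher and 1 with lower values, against 5.07% and 3.95% of all genes tested. In 14 of the 41 the methylphenidate-sired libraries all lay above the saline-sired ones and in 1 all lay below, against 7.84% and 7.01% of all genes. Among the 5976 genes averaging 5 or more on the log2 CPM scale, the shares with higher values were 8.17% and 11.9%. Some of the 41 do not meet that limit. DESeq2 called 2 of the 41, Rph3a and Doc2a, both with higher values, against 1.13% of the genes to which it gave an adjusted p.

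Among 21 active zone scaffold and priming genes, 7 had an unadjusted p under 0.05 with higher and 1 with lower values. Over all genes tested the shares were 5.07% and 3.95%. Rph3a, which encodes the Rab3 effector rabphilin, was at 444.3, 483.0 and 443.6 CPM in methylphenidate-sired libraries 2, 4 and 6, and at 357.6, 358.2 and 382.2 CPM across saline-sired libraries 3, 4 and 5. Its log2 fold change was 0.32 (SE 0.06, edgeR adjusted p = 0.376). Doc2a, a calcium sensor of spontaneous and asynchronous release, had 0.82 (SE 0.23, edgeR adjusted p = 0.445). It was at 16.1, 15.52 and 17.66 CPM in methylphenidate-sired libraries 2, 4 and 6. Across saline-sired libraries 3, 4 and 5 it was at 9.991, 5.872 and 11.99 CPM, lowest in library 4 as Stx1a was. Rims4, a short RIM isoform gene, had 0.35 (SE 0.10, edgeR adjusted p = 0.452). The Doc2a paralog Doc2b, chosen for mention after its values were seen, was the gene with lower values, at -0.21 (SE 0.08, edgeR adjusted p = 0.490).

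Among 11 genes of SNARE assembly and disassembly, 5 had an unadjusted p under 0.05, all with higher values, against 5.07% of all genes tested. The 3 of lowest p were Napb, the brain form of the adaptor that recruits the disassembly ATPase (0.32, SE 0.11, edgeR adjusted p = 0.470), Nsf, that ATPase itself (0.22, SE 0.07, edgeR adjusted p = 0.470), and Stxbp6, a syntaxin-binding protein gene (0.22, SE 0.08, edgeR adjusted p = 0.474). Among 9 other SNARE genes 1 had an unadjusted p under 0.05 with higher values, Snap47 (0.17, SE 0.07, edgeR adjusted p = 0.514), against 5.07% of all genes tested in that direction. Snap29, a SNARE of autophagosome fusion, had 0.10 (SE 0.08).

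**Figure D3:**
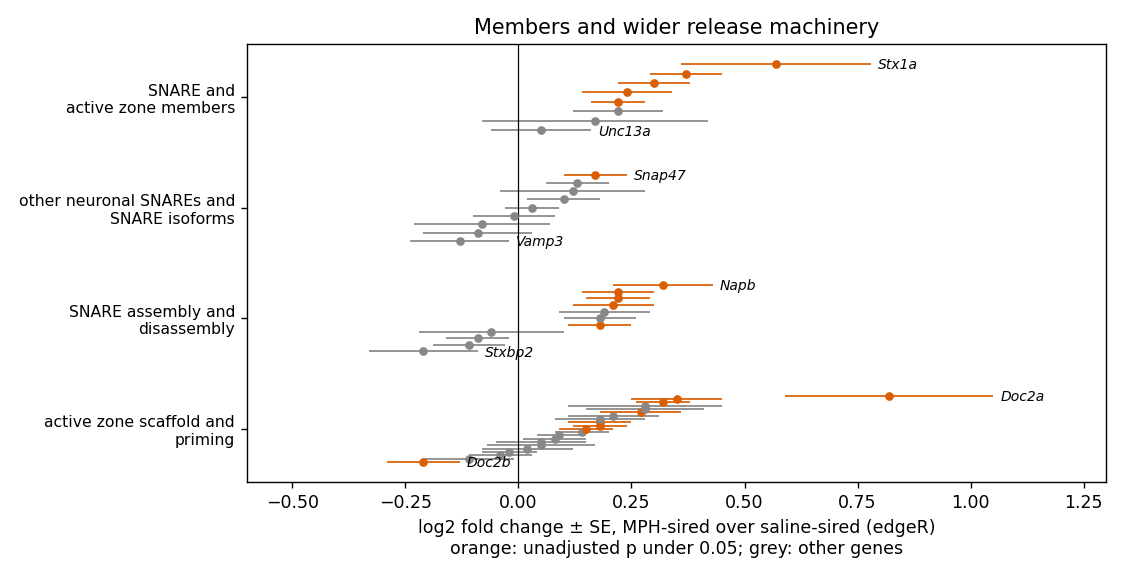
Log2 fold change ± SE, methylphenidate-sired (MPH) over saline-sired, for the 8 genes and the 3 wider lists, 1 point per gene, with the highest and lowest gene of each list named and unadjusted p under 0.05 in orange. The 8 genes lie between 0.05 and 0.57, the 9 other SNARE genes between -0.13 and 0.17.

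Marker genes of other cells differed between the same libraries. The 14 cortical excitatory neuron markers, all detected and none at 0, summed to 1288 to 1460 CPM in the methylphenidate-sired and 516.1 to 1068 CPM in the saline-sired libraries, and 14 of 14 had positive fold changes (median 0.86). Slc17a7, the vesicular glutamate transporter gene of cortical neurons, was at 539.7, 570.0 and 615.6 CPM in methylphenidate-sired libraries 2, 4 and 6, and at 336.9, 162.6 and 438.1 CPM across saline-sired libraries 3, 4 and 5. The 14 medium spiny neuron markers summed to 9664 to 10870 CPM in the methylphenidate-sired and 11500 to 12320 CPM in the saline-sired libraries, with 14 of 14 fold changes negative (median -0.20). In bulk tissue, fewer cells of a type and less RNA per cell cannot be told apart. The cortical markers were lowest in saline-sired library 4, at a mean centred log2 CPM of -1.27, and so were 6 of the 8 genes (Stx1a, Snap25, Rims1, Bsn, Pclo and Unc13a), with Stx1a at -0.90. Choroid plexus markers also set libraries apart: 8 of 8 had negative fold changes (median -3.47), 7 with an unadjusted p under 0.05, against 3.95% of all genes tested with lower values. None of the 8 was at 0 throughout, and they summed to 36.62 to 85.57 CPM in the methylphenidate-sired libraries and to 2084, 365.2 and 30.5 CPM across saline-sired libraries 3, 4 and 5. When saline-sired libraries 3 and 4 were both left out, the log2 fold changes were 0.23 for Rims1, 0.22 for Stx1a, 0.17 for Snap25, 0.15 for Vamp2, 0.04 for Bsn, 0.03 for Pclo, -0.01 for Unc13a and 0.55 for Vamp1, set against 1 remaining saline-sired library. The part of cortical cells in the values of the 8 genes was not tested, as the covariate fit below cannot separate it from the sire's treatment.

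When the cortical marker level entered the fit as covariate, the log2 fold change of Stx1a was -0.01 (SE 0.10), that of Bsn 0.03 (SE 0.10) and that of Pclo 0.02 (SE 0.11). Those of Rims1, Vamp2 and Snap25 were 0.23 (SE 0.09), 0.18 (SE 0.09) and 0.16 (SE 0.09), with edgeR unadjusted p of 0.0368, 0.0887 and 0.116. Rims1 was the only one of the 8 under 0.05, against 2.2% of all genes with higher values in that fit, and its adjusted p was 0.980. Unc13a had -0.13 (SE 0.14) and Vamp1 0.61 (SE 0.33), and the median of the 8 was 0.10. The cortical marker level itself differs between the groups, so in this fit the sire's treatment and the cortical marker level cannot be told apart.

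**Figure D4:**
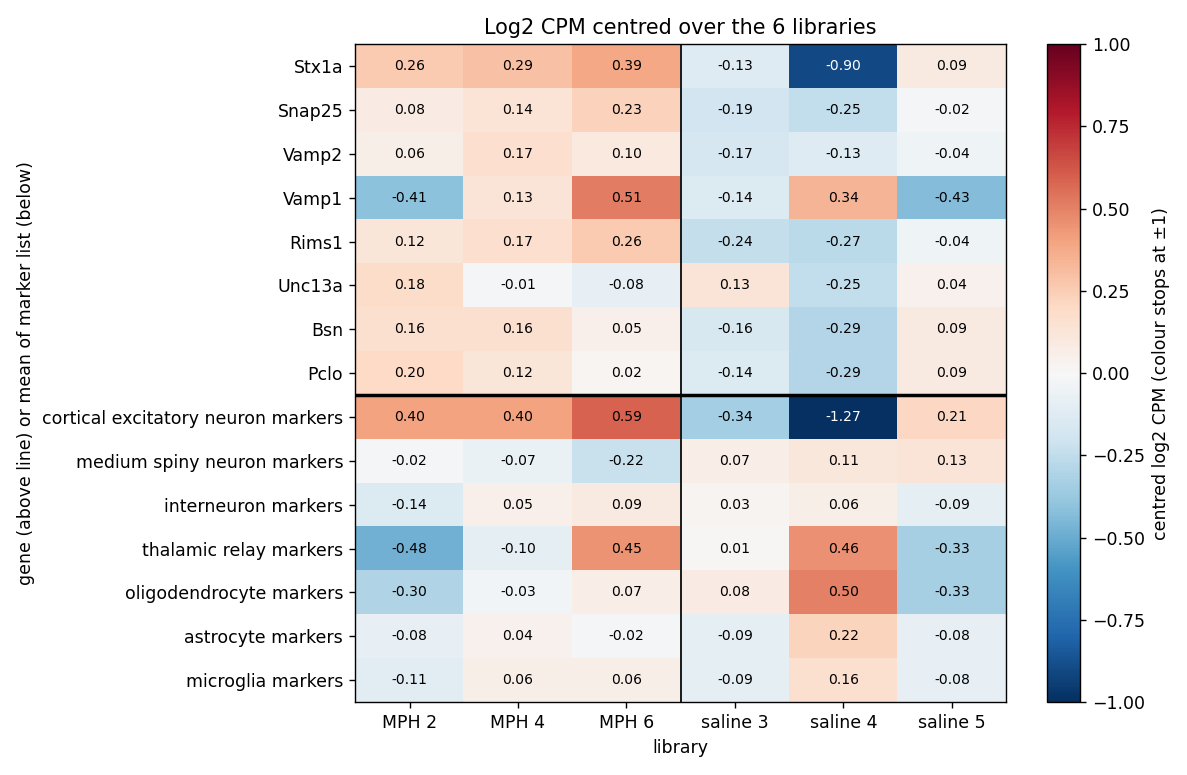
Log2 CPM of the 8 genes (above the line) and mean log2 CPM of 7 marker lists (below), centred over the 6 libraries, methylphenidate-sired (MPH) on the left and saline-sired on the right. Stx1a (-0.90), 5 other genes of the 8 and the cortical markers (-1.27) are lowest in saline 4, whereas Vamp1 is high there (0.34) and lowest in MPH 2 and saline 5 (-0.41 and -0.43).

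Genes of most similar pattern were sought for each of the 8 among 10699 genes averaging 3 or more on the log2 CPM scale, by the root mean square difference of centred log2 CPM over the 6 libraries. The nearest gene to both Snap25 and Rims1 was Flot1, which encodes the lipid raft protein flotillin, at differences of 0.0187 and 0.0278, against medians of 0.203 and 0.230 over the genes compared. For Bsn and Pclo it was Ptprt, a receptor tyrosine phosphatase gene, at 0.0170 and 0.0276, and Camk2a, a subunit gene of calcium/calmodulin-dependent kinase II, stood among the nearest 3 of both. For Stx1a it was Lingo1, a neuronal membrane protein gene, at 0.0496. With only 6 libraries and this many genes, a close match to any one gene is easily found.

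The nearest genes to Vamp1 were Nefh (0.0570), Pygm (0.123) and Kcnab3 (0.144), against a median of 0.372. Nefh is the heavy neurofilament gene of large-calibre axons, Pygm the muscle-type glycogen phosphorylase gene and Kcnab3 a potassium channel beta subunit gene. Nefh was at 42.92, 61.47 and 78.41 CPM in methylphenidate-sired libraries 2, 4 and 6, and at 54.91, 67.41 and 42.69 CPM across saline-sired libraries 3, 4 and 5. Pvalb, the parvalbumin gene of fast-spiking interneurons, was likewise lowest in methylphenidate-sired library 2 (12.51 CPM) and saline-sired library 5 (12.54 CPM) and at 29.08 to 40.22 CPM in the other 4. The 12 interneuron markers together were also lowest in these libraries (1491 and 1547 CPM), but not every one followed Pvalb. The largest terms of this sum were Gad1 and Gad2, at 514.3 and 454.1 CPM in methylphenidate-sired library 2. Npy was lowest in methylphenidate-sired library 2 (54.98 CPM) but highest in saline-sired library 5 (65.59 CPM). Vip was highest in methylphenidate-sired library 2 (11.96 CPM) and lowest in saline-sired library 4 (2.543 CPM). The 6 thalamic relay markers summed to 34.46, 44.35 and 70.66 CPM in methylphenidate-sired libraries 2, 4 and 6, and to 46.1, 65.84 and 37.62 CPM across saline-sired libraries 3, 4 and 5. The 8 oligodendrocyte markers were also lowest in methylphenidate-sired library 2 (7302 CPM) and saline-sired library 5 (7192 CPM). The part of these cell types in the values of Vamp1 was not tested.

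**Figure D5:**
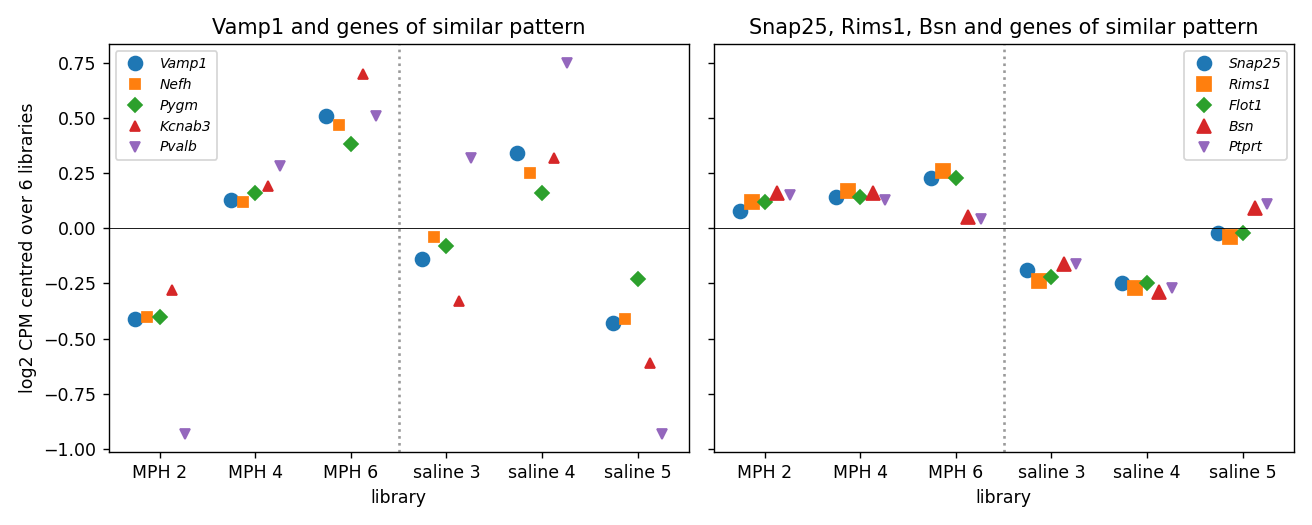
Log2 CPM centred over the 6 libraries for Vamp1 with its 3 nearest genes and Pvalb (left) and for Snap25, Rims1 and Bsn with Flot1 and Ptprt (right), methylphenidate-sired (MPH) libraries left of the dotted line and saline-sired right of it. Vamp1 and its nearest genes are low in MPH 2 and saline 5, whereas Snap25, Rims1 and Flot1 are above 0 in all 3 MPH-sired and below 0 in all 3 saline-sired libraries.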

How the data were processed

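Read counts per gene of striatal RNA from 6 libraries, 3 per group, were analysed. Per the submitters' processing notes, the authors used HISAT2 2.1.0, StringTie 2.1.3b, bcl2fastq 2.20.0 and Trimmomatic with mm10; the sources used here do not state settings, strandedness or the handling of multiply mapped reads. The authors' deposited table gives whole-number, unnormalized counts per gene; 12 further per-sample columns were not used. Libraries were assigned to groups by column name. Offspring sex could not be tied to a column by its name and was not a covariate.

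Counts were tested with edgeR 4.0.16 (R 4.3.3): filterByExpr, TMM scaling, quasi-likelihood F test, Benjamini-Hochberg adjustment over 17874 genes, threshold 0.05. SE values derive from the fold change and F. The script was tested on simulated data. Alternatives were DESeq2 1.42.0, limma-voom (limma 3.58.1), other scalings, no filter, leaving out libraries and a covariate. Log2 CPM used a prior count of 2. Coordinates are from RefSeq (GRCm38.p6, the assembly of mm10), transcript lengths and overlaps from GENCODE vM21. Transcripts of the 8 genes matched no other gene at 95% identity over 200 bases except the overlapping Gm26918, Gm26954 and Colgalt1. The members and lists were chosen with earlier results of these data known. Named were all 8 genes, 4 paralogs, the 3 genes of lowest p per wider list (1 of these is not reported here), Slc17a7, Ppp1r1b and Pvalb. For each member the 3 genes of most similar pattern were found, and some of those of 6 members are named. Doc2b, Vip, Gad1, Gad2 and Npy were added after their values were seen.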

Additional observations from a re-analysis of the deposited data

How the results depend on the processing

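The fold changes of Rims1, Snap25, Vamp2, Bsn and Pclo were positive under all 13 alternatives, which reuse the same libraries. With the covariate, Bsn and Pclo had only 0.0349 (SE 0.103) and 0.0228 (SE 0.109), below their SE. With DESeq2 the genes past the test were 183 over the table, 3 of the 8 and 2 of the wider lists, against 4, 0 and 0 with edgeR; the cause was not tested. Genes past the test over the table numbered 1 with the cortical marker covariate and 0 when both saline-sired libraries 3 and 4 were dropped, where the lone remaining saline-sired library is assumed to vary like the others, and 1 to 4 when 1 library was left out, with 0 of the 8 past the test each time. Among the fits that leave out 1 library, the lowest count came without methylphenidate-sired library 6. The median of the 8 was 0.0985 with the covariate, and 0.205 to 0.351 when 1 library was left out, highest without saline-sired library 5. Signs turned for Unc13a with the covariate (-0.132), without saline-sired library 4 (-0.0576), without methylphenidate-sired library 2 (-0.0158) and with both saline-sired libraries 3 and 4 dropped (-0.0125), for Vamp1 without methylphenidate-sired library 6 (-0.0699), and for Stx1a with the covariate (-0.0105). With saline-sired libraries 3 and 4 dropped, the median of the 8 was 0.161, Bsn and Pclo had 0.0357 and 0.027, Stx1a, Rims1 and Snap25 had 0.222, 0.231 and 0.17, and Vamp1 had 0.553. No paired analysis was possible because the columns carry animal numbers of which the groups share only 1, and sex was not fitted because no column is tied to a labelled animal.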

Other observations

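Ratios of counts within a library were formed for related genes, as values with no test. The ratio of Pclo to Bsn counts was nearly constant, at 0.633, 0.599 and 0.604 in methylphenidate-sired libraries 2, 4 and 6 and at 0.623, 0.616 and 0.616 in saline-sired libraries 3, 4 and 5, although each gene alone varied by 13.3% and 13.5% (coefficient of variation) among the saline-sired libraries. The ratio of Rims2 to Rims1 did not overlap between the groups, at 0.788, 0.671 and 0.634 in methylphenidate-sired libraries 2, 4 and 6 and at 0.844, 0.926 and 0.790 in saline-sired libraries 3, 4 and 5. The nearest values were 0.788 and 0.790, and Rims1 alone did not overlap either. How often ratios of other gene pairs separate the groups was not examined. The ratio of Snap23 to Snap25 was lower in all 3 methylphenidate-sired libraries (0.00556, 0.00498 and 0.00644) than in the saline-sired ones (0.00707, 0.00874 and 0.00664). Snap25 alone did not overlap between the groups either. The ratio of Unc13b to Unc13a averaged 0.0691 in the methylphenidate-sired and 0.0584 in the saline-sired group, with overlap. The ratio of Vamp1 to Vamp2 averaged 0.0900 ± 0.0272 in the methylphenidate-sired and 0.0943 ± 0.0278 in the saline-sired group (SD, n = 3 each), with overlap.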
